A study of Homo sapiens with 18 samples.

Results

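The replication-dependent histone genes of chromosome 6 were examined for peaks of DNA-RNA hybrids before and after camptothecin (CPT), a poison that traps topoisomerase I on DNA. The genes were chosen by name and position. They are all protein-coding genes at chr6:26000000-28000000 of GRCh37 whose symbols start with HIST1H or, in newer releases, with H1-, H2AC, H2BC, H3C or H4C. The rule found 50 of the 20097 protein-coding genes analysed: 6 of the linker histone H1, 11 of H2A, 12 of H2B, 10 of H3 and 11 of H4. The cells were of HCT116, an established human line from a colorectal carcinoma. They were untreated (NT) or exposed to 10 μM CPT during 5 or 60 min, in 2 biological replicates each, and the labels give no other difference between the groups. The paper states that cells were harvested and washed after CPT and only then lysed. The 5 and 60 min are therefore times of exposure and not of lysis. Each replicate gave a DRIP library, made by immunoprecipitating restriction-digested DNA with the hybrid antibody S9.6, a library digested with RNase H before that step to remove hybrids, and an input library. Peak lists of the 6 DRIP and the 6 RNase H libraries were analysed. A gene was said to have a peak when at least 1 bp of a peak lay over the gene or the 1 kb on either side. The lists hold no read counts, so a missing peak is a call below threshold and not the absence of hybrids. Fold enrichment over input was compared only as a percentile within its own list.

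Replication-dependent histone genes provide the histones that package newly made DNA, and they are transcribed mainly in S phase. They are short, they mostly lack introns, and many lie in divergent pairs that share a promoter region. Their mRNAs are not polyadenylated. Instead they end just after a conserved stem-loop, which the stem-loop binding protein SLBP recognises and which U7 snRNP helps to process. The transcription and processing factors gather at the gene clusters in a nuclear structure called the histone locus body. The butyrophilin (BTN) genes, members of an immunoglobulin-related membrane protein family, lie between the histone clusters and served as local reference.

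The stem-loop is the sequence feature that most of these genes share, and examples are shown because it marks the 3′ end of the histone mRNA against which peaks can be placed. The motif GGNNCTNTTNAGNNCC was searched on the transcribed strand within 100 bases after the annotated coding span. It was found in 45 of the 50 histone genes and in 64 of the 20097 protein-coding genes (0.318%). In H2BC11 and H2BC15 the annotated coding span reaches far beyond the histone coding sequence, so the search there began elsewhere. The other genes without it were H3C6, H2BC10 and H4C13. The opposite strand was not searched, because the stem-loop is read in RNA. The lines below give the GRCh37 sequence of the coding strand with the 16 bases of the motif in capitals. H1-4 and H3C1 carry the form found in 27 genes, H4C1 the form found in 8 H4 genes, and H2BC5 a form found in 6 genes. H4C12 carries a form shared with H4C9, and H2AC11 and H2AC15 each have a form of their own.
H1-4 (plus strand, chr6:26157323-26157338): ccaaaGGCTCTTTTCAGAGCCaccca
H3C1 (plus strand, chr6:26021160-26021175): gcaaaGGCTCTTTTCAGAGCCaccac
H2BC5 (plus strand, chr6:26158815-26158830): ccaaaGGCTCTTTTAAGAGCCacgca
H4C1 (plus strand, chr6:26022258-26022273): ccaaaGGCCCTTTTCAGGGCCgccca
H4C12 (minus strand, chr6:27798956-27798971): caaaaGGCCCTTTTTAGGGCCcccac
H2AC11 (plus strand, chr6:27101294-27101309): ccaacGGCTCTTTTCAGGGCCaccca
H2AC15 (minus strand, chr6:27805663-27805678): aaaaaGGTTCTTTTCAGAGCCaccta

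DRIP resolves hybrids no better than the restriction fragments into which the DNA was cut. The digest combined 5 enzymes (Bsr GI, Eco RI, Hind III, Ssp I, Xba I), and peaks over the histone genes often ended at one of their sites. Of the 38 peak edges shared by 2 or more lists, 36 lay within 6 bp of a site. Of the 194 edges found in 1 list, 23 did. The sites at 5 often shared edges are shown because they bound the peaks described later, with 22 bases of GRCh37 on the plus strand and the site in capitals.
Ssp I, right edge of the H1-2 peak (chr6:26056833-26056854): aggggaaaAATATTaaaattcc
Ssp I, left edge of the H1-4 peak (chr6:26156282-26156303): cggcgggaAATATTgcaagttt
Bsr GI, right edge of the H1-4 peak (chr6:26158514-26158535): agtgtatgTGTACAaggtgctg
Ssp I, left edge of the H3C1 peak (chr6:26019341-26019362): tgcattcaAATATTtcacgtaa
Bsr GI, left edge of the H2BC11 and H2AC11 peak (chr6:27100392-27100413): cagaacctTGTACAcatagatg
The right edge of the H1-4 peak lay inside the coding sequence of H2BC5. A Bsr GI site was present in the coding sequence of 9 of the 10 H2B genes with a compact coding span and in none of the H1, H2A, H3 or H4 genes. No site of the 5 enzymes lay in any of the 10 H3 coding sequences, and 1 of the 11 H4 coding sequences held one. The restriction fragment over the gene start had a median length of 1085.5 bp for the histone genes, 1865 bp for all protein-coding genes and 1494 bp for the 1147 genes of at most 2000 bp.

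More histone genes had a DRIP peak after CPT than in NT. In NT, 8 and 10 of the 50 genes had a peak in replicates 1 and 2. After 5 min of CPT the numbers were 21 and 31, and after 60 min 17 and 31. Both lists of 5 min and both lists of 60 min held more of the histone genes than either NT list, and the lists of 5 and 60 min overlapped. The mean was 9 ± 1.41 genes in NT, 26 ± 7.07 at 5 min and 24 ± 9.90 at 60 min (SD, n = 2). An exact permutation test of 2 libraries against 2 cannot give a p below 0.33, so no test of these counts was given. As shares, 16% and 20% of the histone genes had a peak in NT, 42% and 62% at 5 min, and 34% and 62% at 60 min. Among all protein-coding genes the shares were 45.7% and 58.0% in NT, 48.9% and 61.3% at 5 min, and 57.5% and 67.8% at 60 min. The histone share minus that of all genes was -29.7 and -38.0 percentage points in NT, -6.86 and 0.707 at 5 min, and -23.5 and -5.75 at 60 min.

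**Figure D1:**
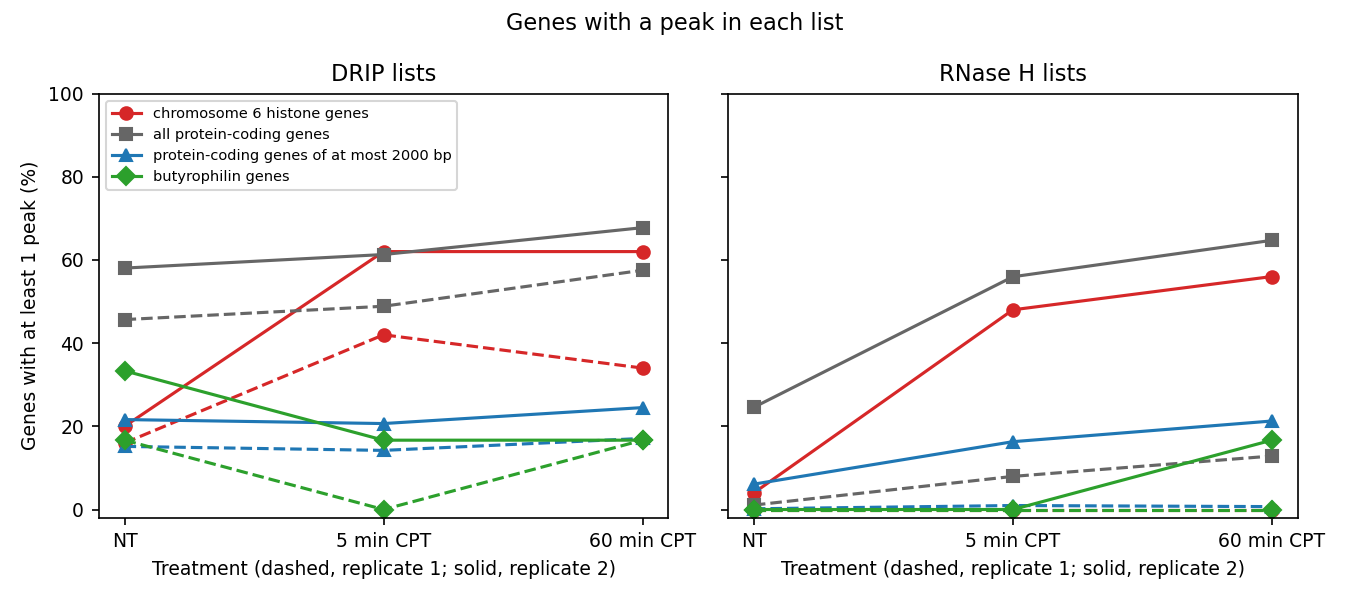
The vertical axis gives the percent of genes with at least 1 peak and the horizontal axis the treatment, with DRIP lists on the left and RNase H lists on the right. Each point is 1 library, dashed lines join replicate 1 and solid lines replicate 2. In the DRIP lists the histone genes lie at 16% and 20% in NT and at 34% to 62% after CPT, while genes of at most 2000 bp stay between 14.2% and 24.5%.

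Most protein-coding genes are far longer than a histone gene and so offer a wider window. Their median length was 27261 bp against 495.5 bp for the histone genes. Among the genes of at most 2000 bp, 15.2% and 21.6% had a DRIP peak in NT, 14.2% and 20.7% at 5 min, and 17.1% and 24.5% at 60 min. This set includes the histone genes themselves, other than the 9 that the annotation makes longer. The NT shares of the histone genes were within 2 points of these values, and their CPT shares were higher in all 4 lists. With windows of equal width, 1 kb on either side of the gene start, the histone genes had a peak in 14% and 18% (NT), 40% and 62% (5 min), and 34% and 62% (60 min) of cases. All protein-coding genes gave 16.6% and 30.5%, 16.1% and 34.2%, and 26.6% and 45.3% in the same order. The annotation extends 9 of the histone genes beyond 2000 bp, up to 37610 bp for H2BC4. With windows from the coding sequence alone plus 1 kb, a setting chosen after seeing the data, the counts were 8 and 9, 21 and 30, and 15 and 30 genes.

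Neighbouring histone genes share peaks, so the 50 genes are not 50 separate measurements. Their windows merged into 29 loci, of which 5 and 6 held a peak in NT, 12 and 17 at 5 min, and 10 and 17 at 60 min. The distinct peaks over the genes numbered 5 and 8 in NT, 19 and 28 at 5 min, and 17 and 35 at 60 min. In the whole 2 Mb interval there were 16 and 29, 37 and 62, and 43 and 93 peaks. The peaks covered 2.82% and 3.57% of the merged windows in NT, 7.33% and 19.8% at 5 min, and 5.50% and 19.4% at 60 min. Replicate 2 had the larger coverage throughout. The DRIP lists of replicate 2 were also the longer ones, with 52967 to 72879 peaks against 30314 to 41668 in replicate 1. Keeping the 30314 peaks with the highest −log10 p of each DRIP list left 8 and 9 histone genes with a peak in NT, 21 and 30 at 5 min, and 16 and 27 at 60 min.

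The peaks over the histone genes had median widths above those of their lists. In replicate 2 the median was 531.5 bp in NT, 1244.5 bp at 5 min and 1072 bp at 60 min, against 513, 464 and 550 bp over the whole lists. In replicate 1 it was 981, 913 and 677 bp against 563, 543 and 490 bp. The CPT peaks were thus wider than those of NT in replicate 2 and not in replicate 1. In replicate 2, 2 of the 8 NT peaks lay above the 90th percentile of fold enrichment, 17 of 28 at 5 min and 12 of 35 at 60 min. In replicate 1, 2 of 5, 2 of 19 and 2 of 17 peaks did so.

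A gene was called gained when neither NT list and both CPT lists of a time had a peak, and lost in the opposite case. By this rule 11 histone genes were gained at 5 min, or 22% of 50, where 4.69% of all protein-coding genes were. Only genes with no peak in either NT list can be gained, here 39 of 50 histone genes and 7467 of 20097 genes. Of those, 11 histone genes and 942 of all genes were gained at 5 min, and 11 and 1490 at 60 min. At 60 min 11 were gained against a background of 7.41%, and 7 of them were gained at both times, where the background was 3.41%. None of the histone genes was lost at 5 or 60 min, where 2.36% and 1.54% of all genes were. A loss needs a peak in both NT lists, which a smaller share of the histone genes had. In NT 7 (14%) had a peak in both lists, against 40.8% of all genes and 14.0% of the genes of at most 2000 bp. At 5 min 21 (42%) had a peak in both lists, against 43.7% and 12.1%, and at 60 min 17 (34%), against 54.9% and 15.9%. Among these short genes, 1.92% were gained at 5 min and 2.18% at 60 min, or 22 and 25 of 1147. The gained histone genes are themselves among those 22 and 25, except H2BC11 at both times and H2BC6 at 60 min. With replicate 2 alone, 22 genes would be gained at each time, and with replicate 1 alone 13. After removal of DRIP peaks that met an RNase H peak, 0 and 2 genes were gained. After CPT every histone gene with a peak in replicate 1 also had one in replicate 2, 21 of 31 at 5 min and 17 of 31 at 60 min. The replicate 2 lists of 5 and 60 min shared 30 of their 31 genes each. In replicate 1 they shared 13, which is 61.9% of the 21 genes at 5 min and 76.5% of the 17 at 60 min.

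**Figure D2:**
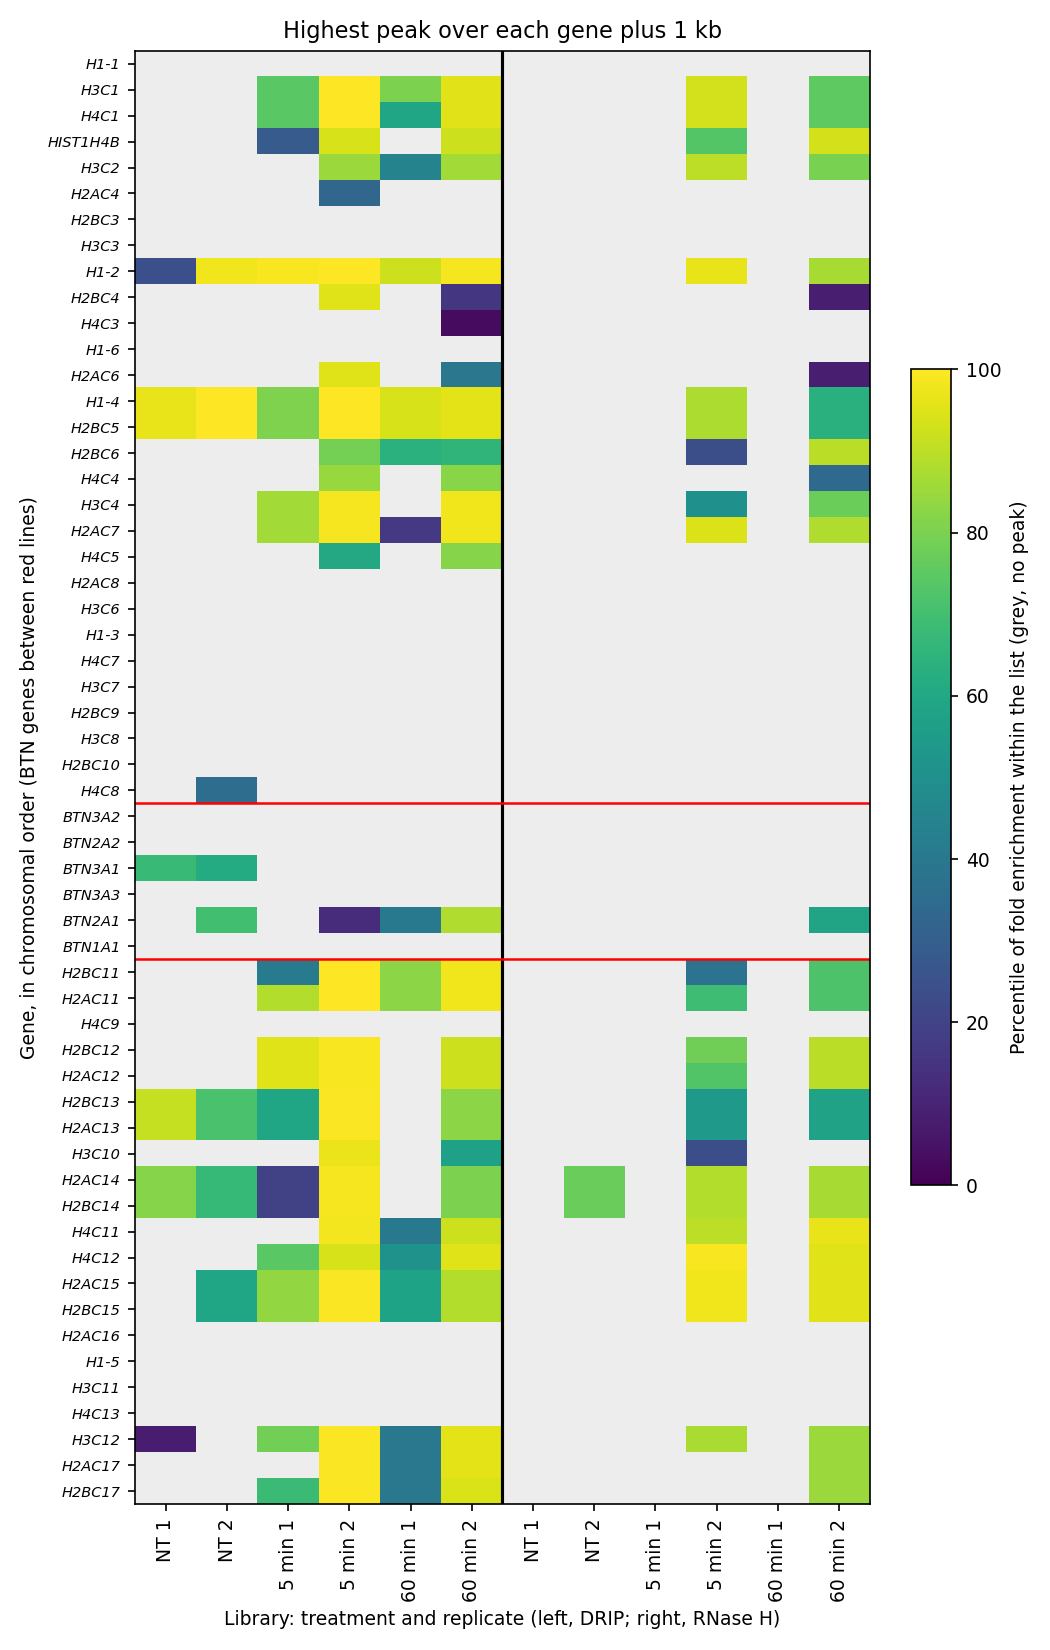
Rows are the 50 histone genes and the 6 BTN genes in chromosomal order, and columns are the 12 libraries, DRIP on the left of the black line and RNase H on the right. Colour gives the percentile, within its own list, of the fold enrichment of the highest peak over the gene plus 1 kb, and grey means no peak. Genes with peaks stand in runs, the run from H2AC8 to H2BC10 has none, and the RNase H columns are empty for replicate 1 in all 3 treatments.

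The linker histone genes split into a pair with peaks throughout and a group without any. H1-2 and H1-4 encode H1 subtypes that bind the linker DNA between nucleosomes and are expressed in most cells. H1-4 lay at the 96.8th and 99.8th percentile of fold enrichment in NT, the 80.8th and 99.9th at 5 min and the 94.1st and 95.8th at 60 min (replicates 1 and 2). The 5 min values overlapped those of NT, and both 60 min values lay below both NT values. H1-2 lay at the 24.5th and 97.8th percentile in NT, the 99.1st and 99.8th at 5 min and the 92.3rd and 98.7th at 60 min. In replicate 1 at 5 min the 99.1st percentile belonged to a peak of the flank, chr6:26051730-26055326, that did not reach the gene, and the peak over H1-2 itself lay at the 79.1st. The peaks over the gene thus overlapped between NT and 5 min, and those of 60 min overlapped NT as well. The other 4 genes, H1-1, H1-3, H1-5 and H1-6, had no peak in any of the 12 lists. H1-6 encodes the testis-specific subtype, and the other three encode somatic ones.

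The H1-4 peak had the same start and end in 5 of the 6 DRIP lists, chr6:26156293-26158526. This interval is the fragment between the Ssp I and Bsr GI sites shown above, and its right end lies in H2BC5. Its summit was 63 to 140 bp downstream of the H2BC5 start in the 6 DRIP lists and not at H1-4. H2BC5 therefore has the same values as H1-4 in all lists, and the pair cannot be told apart. Over H1-2, the peak filled the whole Ssp I fragment of 5114 bp, chr6:26051730-26056843, in the replicate 2 lists of all 3 treatments. In NT replicate 1 it covered only the 1857 bp at the H1-2 end, which is the list with the low rank. H1-2, H1-4 and H2BC5 were the 3 histone genes with a peak in all 6 DRIP lists, where 28.3% of all genes had one.

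H2A and H2B, which form the dimers on the outside of the nucleosome core, had the largest numbers of genes with peaks. Among the 11 H2A genes, 2 and 3 had a peak in NT, 6 and 9 at 5 min, and 4 and 8 at 60 min. Among the 12 H2B genes the numbers were 3 and 4, 7 and 9, and 5 and 9. H2AC13 and the divergent H2BC13 shared their peaks, at the 91.4th and 71.3rd percentile in NT and the 58.9th and 99.4th at 5 min. At 60 min they had no peak in replicate 1 and one at the 82.6th percentile in replicate 2, so the treatments overlapped. H2AC15 had no peak in NT replicate 1, the 58.9th percentile in NT replicate 2, the 83.7th and 99.5th at 5 min and the 58.0th and 88.6th at 60 min. Both 5 min lists stood above both NT lists for this gene, and the 60 min lists overlapped NT. The other genes with a peak in both NT lists were H2AC14 and H2BC14, and with H1-2, H1-4, H2BC5, H2AC13 and H2BC13 they make up the 7.

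Several divergent H2A and H2B pairs had no peak in either NT list and had peaks in the CPT lists. H2BC12 and H2AC12 lay at the 95.2nd and 99.2nd percentile at 5 min, and at 60 min had no peak in replicate 1 and the 92.4th percentile in replicate 2. They were gained at 5 min and not at 60 min. H2AC11 lay at the 88.4th and 99.8th percentile at 5 min and the 82.5th and 97.9th at 60 min. In replicate 1 at 5 min the 88.4th percentile belonged to a flank peak that began at chr6:27101609, beyond the end of H2AC11. No peak over H2AC11 itself lay above the 40.8th percentile in that list. H2BC11, on the other side of the same promoter region, lay at the 40.8th and 99.8th percentile at 5 min and shared the 60 min values of H2AC11. H2AC17 had no peak in replicate 1 at 5 min, the 99.4th percentile in replicate 2, and the 40.1st and 95.8th at 60 min. It was gained at 60 min only. The 40.1st percentile belonged to a peak of the flank that began at chr6:27861366, inside H2BC17, and did not reach H2AC17.

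H3 and H4, which form the central tetramer of the nucleosome, had almost no peaks in NT. Of the 10 H3 genes, 1 and 0 had a peak in NT, 3 and 5 at 5 min, and 3 and 5 at 60 min. Of the 11 H4 genes, 0 and 1 had one in NT, 3 and 6 at 5 min, and 3 and 7 at 60 min. H3C1 had no NT peak and lay at the 74.4th and 99.7th percentile at 5 min and the 80.2nd and 95.5th at 60 min. In replicate 1 at 60 min the 80.2nd percentile belonged to a flank peak that began at chr6:26019352 and ended before H3C1 began. The neighbouring H4C1 lay at the 74.4th and 99.7th percentile at 5 min, from the same peaks, and the 58.7th and 95.5th at 60 min. For H4C1 the 74.4th percentile came from its flank, as the peak chr6:26020933-26021499 ended before that gene began. In replicate 2 the peak over both genes began at the Ssp I site shown above and was 3082 bp wide at 5 min and 3210 bp at 60 min. H3C4 lay at the 86.0th and 98.6th percentile at 5 min, but at 60 min only replicate 2 had a peak, at the 97.9th. H3C12 had a peak at the 7.43rd percentile in NT replicate 1 and none in NT replicate 2, and lay at the 78.9th and 99.4th percentile at 5 min and the 40.1st and 95.8th at 60 min. H4C12 had no NT peak and lay at the 74.4th and 94.0th percentile at 5 min and the 51.5th and 95.1st at 60 min. Both CPT lists of each time stood above both NT lists for H3C1, H4C1, H3C12 and H4C12. For H3C12 the 40.1st percentile in replicate 1 at 60 min came from the flank peak that began inside H2BC17.

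Over all histone genes, 15 had both 5 min percentiles above both NT percentiles, counting no peak as the 0th, where 14.4% of all protein-coding genes did. The reverse held for none of the histone genes and for 13.7% of all genes. With no peak as the 0th, a gene can lie below NT only if both NT lists have a peak. That was so for 14% of the histone genes and 40.8% of all genes, so these shares are not on equal terms. At 60 min, 12 stood above NT, against 23.1% of all genes, and 2 below, against 9.02%. The share above NT was 30% at 5 min and 24% at 60 min, where the genes of at most 2000 bp gave 3.92% and 4.71%. The histone genes below NT at 60 min were H1-4 and H2BC5, which share their peak. H1-2 counts among the 15 through its flank peak, and H4C1 with a flank peak in replicate 1. At 60 min H3C12 and H2AC17 count among the 12 with the replicate 1 value of the flank peak that began inside H2BC17. H3C1 counts among the 12 with a replicate 1 value from its own flank. The families contributed alike to the genes gained, with 3 of H2A, 3 of H2B, 2 of H3 and 3 of H4 at each time and none of H1.

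**Figure D3:**
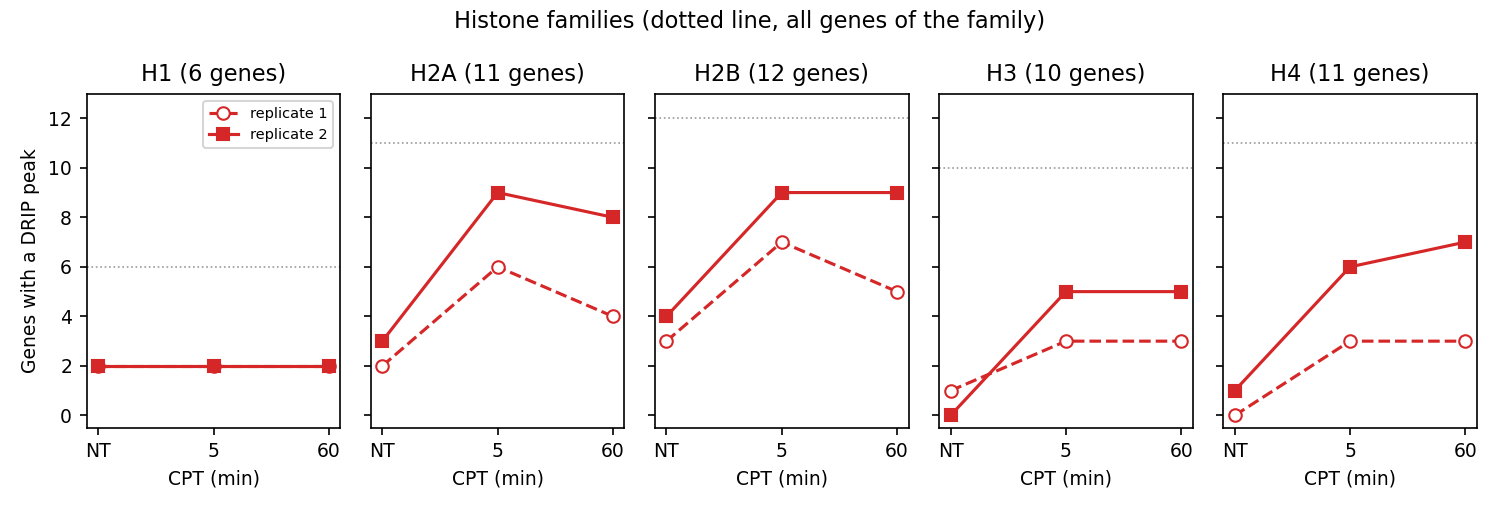
The vertical axis counts genes with a DRIP peak and the horizontal axis gives the treatment as NT or min of CPT, with 1 panel per histone family. Open circles are replicate 1, filled squares replicate 2, and the dotted line marks the number of genes in the family. H1 stays at 2 genes in every list, and the H2A, H2B, H3 and H4 points after CPT lie above those of NT in the same replicate.

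A group of 17 histone genes had no peak in any of the 6 DRIP lists, or 34%, where 20.6% of all protein-coding genes and 67.5% of the genes of at most 2000 bp had none. They also had none in the RNase H lists, where 17.8% of all genes and 64.7% of the short ones lacked a peak in all 12 lists. They were H1-1, H1-3, H1-5, H1-6, H2AC8, H2AC16, H2BC3, H2BC9, H2BC10, H3C3, H3C6, H3C7, H3C8, H3C11, H4C7, H4C9 and H4C13. A run of 8 of them extends from H2AC8 to H2BC10 at chr6:26217149-26273640, and a run of 4, H2AC16, H1-5, H3C11 and H4C13, lies at chr6:27833095-27841312. Their median length of 494 bp and GC content of 56.3% stood beside 496 bp and 56.2% in the 33 histone genes with a peak. Around the gene start the median GC content was 46.0% without and 49.1% with a peak. The median start fragment was 1035 bp without and 1105 bp with peaks, and GC skew was -0.018 and -0.0098. Reads that also fit elsewhere could lower the calls over near-identical genes, so 75-base words of the coding sequence, the length of 1 read, were looked for in the rest of the genome. All 17 genes without a peak had 0% of such words elsewhere. The genes above 10% were H4C11 and H4C12 with 100%, H2AC14 with 83.2%, H2AC13 with 81.7%, H2BC12 with 50% and H2BC6 with 13.8%. All 6 had peaks. Except for H2BC6, their values are uncertain to that extent, since reads over them could have been split between copies. The peaks counted for H2BC6 lay within chr6:26171753-26174881, and its coding sequence lies at chr6:26184024-26184401. Its call as gained thus came from peaks near the annotated start that did not reach the histone coding sequence.

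The histone genes fall into 3 groups along the chromosome. In the major cluster before the BTN genes, 3 and 4 of 29 genes had a peak in NT, 8 and 15 at 5 min, and 8 and 15 at 60 min. In the first group after them, the 5 genes from H2BC11 to H2AC12, none had a peak in NT, 4 and 4 did at 5 min, and 2 and 4 at 60 min. In the last group the numbers were 5 and 6 of 16, 9 and 12, and 7 and 12. Each of the 3 groups held more genes with a peak in every 5 min list than in either NT list.

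The BTN genes between the clusters differed in pattern. BTN3A1 had a peak in both NT lists, at the 67.5th and 61.6th percentile, and none in the 4 CPT lists. BTN2A1 had no peak in NT replicate 1 and the 69.7th percentile in NT replicate 2, then no peak and the 12.7th percentile at 5 min, and the 40.6th and 88.1st at 60 min. BTN1A1, BTN2A2, BTN3A2 and BTN3A3 had no peak in any list. In all, 1 and 2 of the 6 BTN genes had a peak in NT, 0 and 1 at 5 min, and 1 and 1 at 60 min. These genes are too few for a test of the difference from the histone genes, and no such test was made. The other 11 protein-coding genes of the interval had a peak in 2 and 1 cases in NT, 4 and 6 at 5 min, and 4 and 6 at 60 min, so both CPT groups stood above NT for them too. However, 1 of the 11, annotated without a symbol, had the values of H2AC7 in every list. It entered all CPT counts through the peaks of that histone gene and is not a separate neighbour.

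Along the genes, coverage by peaks was highest near the start, within 250 bp of it in each DRIP list. The summits were spread more widely, with 15 of 28 and 19 of 35 more than 500 bp downstream of the nearest start in replicate 2 at 5 and 60 min. The start itself lay under a peak in 6 and 6 of the 50 genes in NT, 13 and 29 at 5 min, and 9 and 23 at 60 min. The stem-loop at the 3′ end lay under a peak in 2 and 3 of 45 genes in NT, 4 and 22 at 5 min, and 5 and 20 at 60 min. As a share, starts were covered more often than stem-loops in all 6 DRIP lists. The stem-loop began 25 to 65 bases after the coding span. How often both ends of a histone gene fell on 1 restriction fragment was not counted. Of the 48 genes with a compact coding span, 18 held a site of the digest in the coding sequence, among them all 10 of H2B. Divergent pairs with starts 170 to 979 bp apart numbered 9. A peak covered both starts in 1 and 1 of them in NT, 4 and 8 at 5 min, and 2 and 5 at 60 min. In NT these were H2BC13 with H2AC13 in replicate 1 and H2AC14 with H2BC14 in replicate 2. In both 5 min lists they were H2BC11 with H2AC11, H2BC12 with H2AC12, H2BC13 with H2AC13, and H2AC15 with H2BC15. H2BC17 enters the 9 pairs with both H3C12 and H2AC17, because the annotation extends H3C12 into H2AC17. In replicate 2 at 5 min the same peak covered the starts of both these pairs, so it counts 2 times among the 8.

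**Figure D4:**
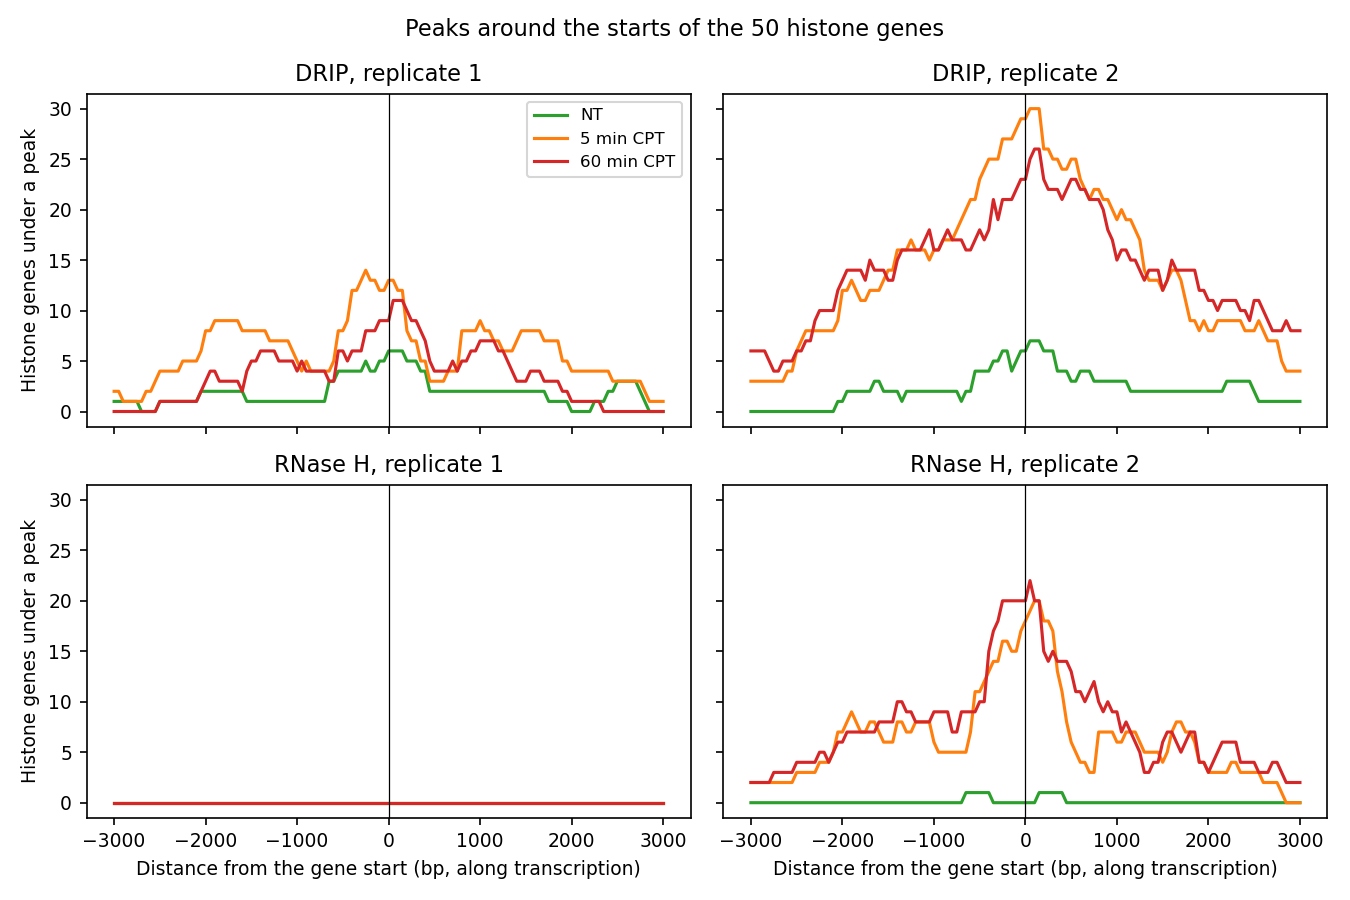
The vertical axis counts how many of the 50 histone genes lie under a peak at each distance from the gene start, and the horizontal axis gives that distance in bp along transcription, with 1 line per treatment and 1 panel per library type and replicate. In DRIP replicate 2 the lines of 5 and 60 min reach 30 and 26 genes just downstream of the start, and the NT line reaches 7. The 3 lines of RNase H replicate 1 coincide at 0.

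RNase H lists separated the replicates sharply. In replicate 1 none of the histone genes had an RNase H peak in NT, at 5 min or at 60 min, where 1.07%, 7.96% and 12.9% of all protein-coding genes had one. In replicate 2 the numbers were 2 in NT (4%), 24 at 5 min (48%) and 28 at 60 min (56%), where 24.6%, 55.9% and 64.7% of all genes had one. Among the genes of at most 2000 bp, 6.10%, 16.3% and 21.3% had one, so the histone genes stood below the short genes in NT and above them after CPT. The RNase H lists held 473, 3439 and 5392 peaks in replicate 1 and 15790, 50353 and 67188 in replicate 2. All 24 and all 28 genes also had a DRIP peak in the matching list. H1-2, for example, had RNase H peaks at the 96.6th and 86.9th percentile at 5 and 60 min in replicate 2, and H3C1 at the 93.2nd and 75.2nd. H2AC14 and H2BC14 were the genes with a peak in NT, at the 77.2nd percentile. After removal of every DRIP peak that met an RNase H peak of its own replicate and treatment, 8 and 8 histone genes kept a peak in NT, 21 and 9 at 5 min, and 17 and 11 at 60 min. In replicate 1 there was no RNase H peak over these genes to remove, so its counts could not move. In replicate 2 the counts after removal stood above NT by 1 gene at 5 min and 3 at 60 min. Signal that remains after RNase H and hybrids that RNase H did not reach cannot be told apart in these lists.

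Genes with related functions gave a wider view. Of 13 replication-dependent histone genes on chromosome 1, 2 and 3 had a DRIP peak in NT, 6 and 9 at 5 min, and 6 and 8 at 60 min. Both CPT pairs stood above both NT lists, as on chromosome 6. The RNase H list of untreated replicate 2 held 5 of these 13 genes, more than the 3 of its DRIP list. Each of the CPT lists with RNase H of that replicate held 8, where DRIP gave 9 and 8. No RNase H list of replicate 1 held any of these genes. Of 20 genes for the histone locus body and histone pre-mRNA processing, 13 and 14 had a peak in NT, 13 and 18 at 5 min, and 18 and 20 at 60 min. The lists of 5 min overlapped NT there. Of 10 genes for replication-independent histone variants, which are longer, have introns and yield polyadenylated mRNAs, 6 and 10 had a peak in NT, 8 and 10 at 5 min, and 10 and 10 at 60 min. The treatments overlapped for these genes as well. In NT, 65% and 70% of the locus body and processing genes and 60% and 100% of the variant genes had a peak, against 16% and 20% of the chromosome 6 histone genes. These lists serve as description, and the difference between them was not tested.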

How the data were processed

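HCT116 cells in 3 treatments with 2 biological replicates gave 18 libraries, and the peak lists of the 12 DRIP and RNase H libraries were analysed. The 6 inputs entered only through the authors' peak calling. The labels do not say whether replicates came from separate cultures beyond the word biological, so the spread given is that between 2 libraries. The authors aligned 75-base read pairs to hg19 with BWA, removed duplicates and blacklisted regions, and called peaks with MACS2 per library against its input, without pooling. The deposited fold enrichment is the ratio of a summit to the input, and the deposited −log10 p and −log10 q rank peaks within their list. The deposited score is a rescaled −log10 q and was not used. The lowest −log10 q was 1.30 to 1.31 in the lists. Depth is not part of the lists and library totals were not used here, so no counting interval was given, and the comparison of spike-in scaled reads was not repeated.

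Genes were those of GENCODE release 44 on GRCh37, chromosomes 1 to 22 and X, with 20097 protein-coding genes. A peak counted with at least 1 bp over the gene plus 1 kb on each side. Genes named with values were, per family, the 2 with the highest lowest percentile over the DRIP lists (no peak as 0), up to 6 gained genes per call by mean percentile where carried, all H1 genes, all BTN genes and, by symbol, those without a DRIP peak. Other genes were named to describe shared peaks and were chosen after their values were seen. The genes and the related lists were chosen with earlier results of these data known. The alternatives were other windows, coverage of 25% or more, equal list sizes, a minimum −log10 q of 3, merged loci, removal of peaks met by RNase H peaks, a block for the replicate, and leaving out each replicate. Scripts were tested on 6 simulated lists over 1000 genes, with 0 wrong calls. Python 3.11.15, NumPy 2.4.6, pandas 2.3.3, SciPy 1.17.1 and Matplotlib 3.10.9 were used.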

Additional observations from a re-analysis of the deposited data

How the results depend on the processing

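The larger number of histone genes with a DRIP peak at 5 and 60 min than in NT was 17 and 15 genes on average. Its direction stayed under the alternatives run, between 7 and 18 at 5 min and between 6 and 18.5 at 60 min. With a replicate left out it was 13 to 21 and 9 to 21. The lowest values, 7 and 6, came with removal of DRIP peaks met by RNase H peaks. Replicate 1 had no RNase H peak over these genes to remove. In replicate 2 that removal left 8 genes in NT, 9 at 5 min and 11 at 60 min, so its own differences were small. The difference between 60 and 5 min of -2 genes turned to 0.5 with 5 kb on each side, and that in covered share, -1.10 percentage points, to 0.0645 without flanks, so neither has a settled direction.

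The 11 genes gained at 5 min became 0 once DRIP peaks overlapping RNase H peaks were removed, 7 without flanks and 6 when windows were merged into loci. The 11 gained at 60 min became 2 after that removal, 6 with merged loci, 4 with 25% of the window covered and 7 with −log10 q of at least 3. The 3 genes with a peak in all 6 lists became 1, and the 0 lost at 60 min 2, after removal of RNase H peaks. Leaving out each replicate gave 13 to 22 genes gained at 5 min, 13 to 22 at 60 min, 0 to 1 lost at 5 min, 1 to 4 lost at 60 min and 4 to 9 with a peak in all DRIP lists kept. Without replicate 1 both gained counts were 22. With a single library per treatment these are values with no check by a second library.

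Over all treatments, 10.7 more histone genes had a DRIP than an RNase H peak, and 6.48 more percentage points were covered. Equal list size was set within each library type, at 30314 peaks for DRIP and 473 for RNase H. The cut RNase H lists held 0 histone genes with a peak. The differences with equal sizes, 18.5 genes and 8.97 points, are thus those of the DRIP lists alone. With the replicate block, which pairs DRIP and RNase H libraries of the same sample, the values were 10.7 and 6.48. An exact permutation test over libraries missed its 0.05 threshold for both measures as analysed and passed it with the block. It also passed with equal list sizes, but there the cut to 473 RNase H peaks had settled the outcome beforehand. Its p-values are not given because the genes were chosen with results known. The histone share less that of all genes differed by -7.33 points between DRIP and RNase H lists and turned to 2.35 with windows around gene starts and 4.2 with 25% coverage. Between treatments, the sources used here do not say whether a replicate number marks a shared day or culture. Deviations of same-numbered libraries correlated at 0.50 to 0.61, a hint of pairing from 2 numbers only. The block changed no direction there. The lists hold no depth, and read totals were not used to weigh a missing peak.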
